A study of Mus musculus with 8 samples.

Results

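Collagen leaves the fibroblast only after it has been hydroxylated and folded, and it carries load only after it has been trimmed and its fibrils crosslinked. The 10 genes described here encode enzymes and helpers of these steps, Lox, Loxl1, Loxl2, Loxl3, Plod1, Plod2, Serpinh1, Pcolce, Pcolce2 and P4ha1. They were taken by gene symbol from the 18957 genes listed in each of 8 count files, and each of the 10 was listed in every file. Inside the endoplasmic reticulum, prolyl 4-hydroxylases stabilise the triple helix, lysyl hydroxylases prepare lysines for crosslinking, and the chaperone HSP47, the product of Serpinh1, holds the helix during its transit. Outside the cell, procollagen C-proteinase enhancers speed the removal of the C-terminal propeptide, and the copper enzymes of the lysyl oxidase (LOX) family oxidise lysines so that collagen and elastin chains join. Cardiac fibroblasts are the main source of this machinery in the heart, and LOX activity is known as a determinant of myocardial stiffness.

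The cells were PDGFRA-positive, lineage-negative cardiac fibroblasts, sorted by flow cytometry from dissociated ventricles of mice aged 3 to 4 weeks on a mixed C57BL/6 background. There were 4 libraries from WT mice, which carried wild-type alleles only, and 4 from Pdgfra-Cre:LmnaF/F mice, in which a Cre transgene driven by Pdgfra regulatory sequences deletes both floxed copies of Lmna, the gene of lamin A and C. No library came from mice with Cre alone, the Cre also acts in some cardiac myocytes, and PDGFRA is not exclusive to fibroblasts. The labels number the libraries within a genotype and state neither the sex of the mice nor whether each library came from a mouse of its own, so the p-values measure the spread between these libraries, which may be technical in part.

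Depth lay between 2080555 counts (WT replicate 2) and 12502949 counts (Pdgfra-Cre:LmnaF/F replicate 4), and counts are given as CPM, counts scaled to library size with TMM factors. Values of a gene are listed in the order of replicates 1 to 4 of each genotype. The 10 genes held between 212 and 26385 counts in any library, so none was near the floor of 3 counts. Lmna had a log2 fold change of -1.72 (SE 0.22, adjusted p = 0.00492 in the edgeR quasi-likelihood test with Benjamini-Hochberg adjustment). The 9 mesenchymal markers were above 0 in every library and summed to between 40600 and 55940 CPM. Of these 9, 6 had a negative log2 fold change, where 51.8% of all tested genes had a positive one. Of the 9, 1 fell, Thy1 (-2.18, edgeR adjusted p = 0.00273), against 0.238% of all genes called in this direction. Values were also negative for 6 of 6 endothelial markers (median -0.37) and 4 of 4 epicardial markers (median -1.05), none of which passed edgeR. The 8 cardiac myocyte markers summed to between 206 and 679 CPM in 7 libraries and to 3237 CPM in Pdgfra-Cre:LmnaF/F replicate 4, where the 7 hematopoietic markers were also highest (390.4 CPM, against 37.4 to 162 in the others). Summed levels of 14 genes of the dissociation response, immediate-early and stress genes induced while tissue is digested, lay between 1812 and 5156 CPM in the WT and between 7446 and 12700 CPM in the Pdgfra-Cre:LmnaF/F libraries. All 14 had a positive log2 fold change (median 1.54), 12 at an unadjusted p under 0.05, against 6.24% of all genes in this direction. In 11 every Pdgfra-Cre:LmnaF/F library lay above every WT library, against 4.06% of all genes. In the edgeR test 3 rose, Ier3, Btg2 and Nr4a1, named after their values were seen, against 0.169% of all genes. Transcripts of 4 Y-linked genes summed to between 143 and 273 CPM in WT replicates 1, 2 and 4 and Pdgfra-Cre:LmnaF/F replicate 4, and to at most 1.96 CPM in the other 4 libraries. Dividing cell markers stood at 215 CPM in WT replicate 2 and 80.1 CPM in WT replicate 3, and at most at 14.4 CPM elsewhere. The part of these differences in the results below was not tested, except where values without a library or with a covariate are given.

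Of the 10 genes, 8 had a negative log2 fold change in the Pdgfra-Cre:LmnaF/F against the WT fibroblasts and 2, Lox and Plod2, a positive one, but none of them passed the edgeR test. In RNA from sorted cells in bulk, fewer cells of a type and less RNA per cell cannot be told apart. The median log2 fold change of the 10 genes was -0.44, against 0.02 over all 13036 genes tested, and 51.8% of all tested genes had a positive value. With edgeR, 0 of 10 had an adjusted p under 0.05, a threshold that 0.407% of all tested genes passed. At an unadjusted p under 0.05 there were 6 of 10, against 11.9% of all genes. Loxl1, Loxl2, Serpinh1, Pcolce and P4ha1 made 5 of 10 with negative values, against 5.65% of all genes, and Lox was 1 of 10 with a positive value, against 6.24%. The groups did not overlap for 2 of 10, Serpinh1 and Pcolce, both with every Pdgfra-Cre:LmnaF/F library below every WT library, an arrangement found for 3.97% of all genes. DESeq2 called 3 of 10, Loxl2, Serpinh1 and Pcolce, against 2.58% of the genes it tested, and with 1 RUVr factor (a factor of unwanted variation estimated from residuals) it called 4 of 10, the same 3 and Loxl1, against 4.01%. Limma-voom called 0 of 10, against 0.967%. EdgeR without the filter on low counts called 3 of 10, Lox, Loxl2 and Pcolce, against 1.45%, and edgeR with Y-linked expression as a covariate called 1 of 10, Lox, against 0.89%. The plot of CPM by library shows each of the 10 genes, and the plot of fold changes sets them beside related genes.

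**Figure D1:**
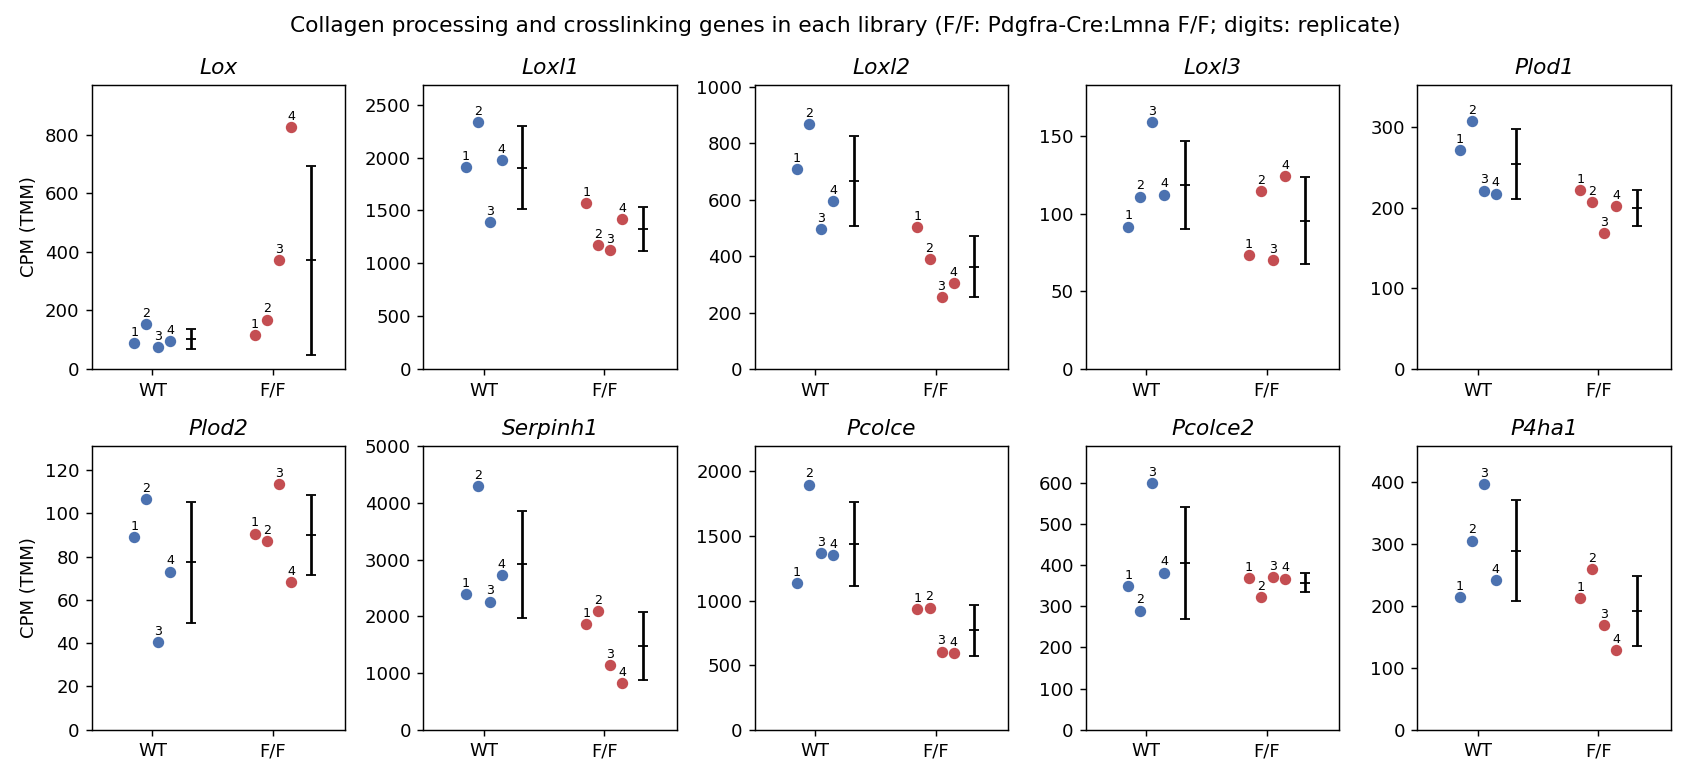
Normalized level (CPM, y axis from 0, a scale of its own in each panel) of the 10 genes in 4 WT (blue) and 4 Pdgfra-Cre:LmnaF/F libraries (red, labelled F/F), with the replicate number above each point and the mean and SD in black. Every red point lies below every blue point for Serpinh1 and Pcolce, and the red points for Lox run from 115 to 826 CPM.

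**Figure D2:**
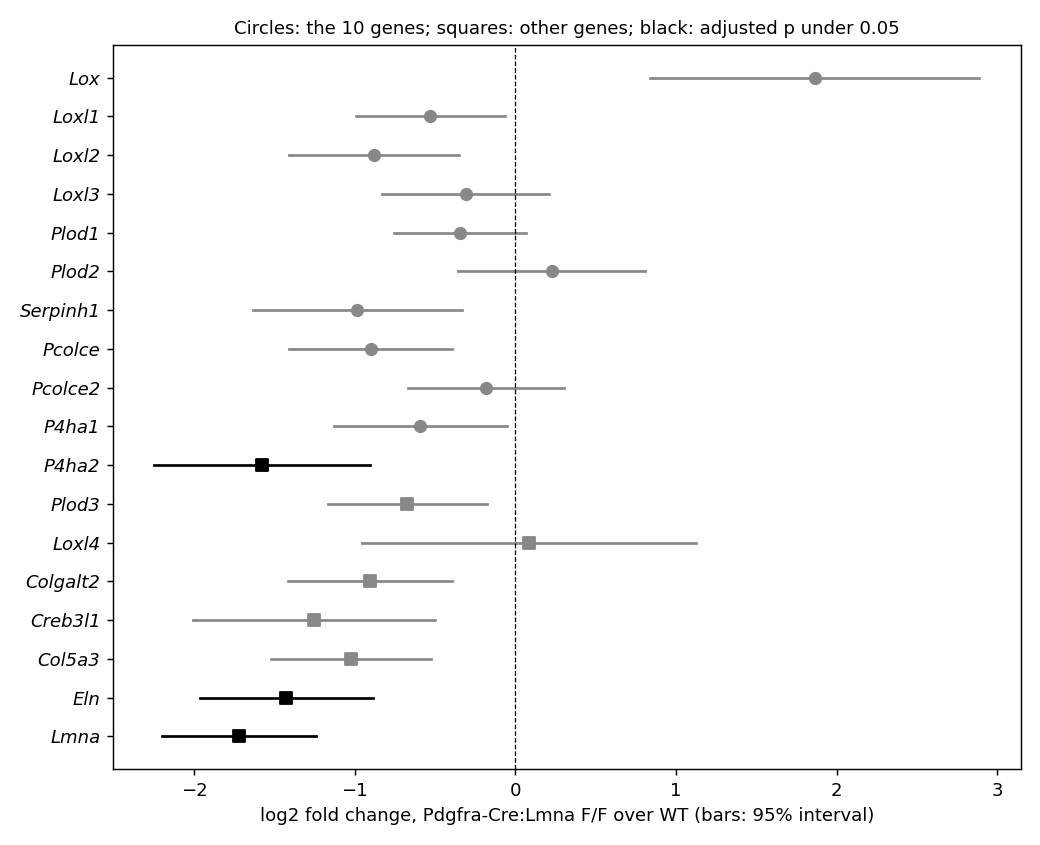
Log2 fold change (x axis) with its 95% confidence interval from edgeR for the 10 genes (circles) and 8 other genes (squares), with black marking an adjusted p under 0.05. P4ha2, Eln and Lmna are black, and all 10 circles are grey.

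Levels per kilobase of exon allow the genes to be ordered. In the WT fibroblasts Serpinh1 stood highest at 1196 ± 386 CPM per kilobase (SD, n = 4), followed by Loxl1 at 578 ± 118 and Pcolce at 375 ± 85.1 CPM per kilobase. Loxl2 (123 ± 29.6), Pcolce2 (87.6 ± 29.3) and P4ha1 (70.2 ± 19.7) came next. Plod1 (37.6 ± 6.38), Loxl3 (25.8 ± 6.20), Lox (21.4 ± 7.42) and Plod2 (14.4 ± 5.21) closed the order. The SD ranges of neighbours in this order overlapped, except between Serpinh1 and Loxl1, Pcolce and Loxl2, and P4ha1 and Plod1. In the Pdgfra-Cre:LmnaF/F fibroblasts the leading genes were again Serpinh1 (604.8 ± 245), Loxl1 (401 ± 63.3) and Pcolce (201 ± 51.4 CPM per kilobase). Lox now had a mean of 77.6 ± 67.7 CPM per kilobase, level with Pcolce2 at 77.3 ± 5.03 and Loxl2 at 67.1 ± 20.1, with an SD close to the mean itself.

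Lox encodes the founding lysyl oxidase, made as a proenzyme that is activated outside the cell. Lox (chromosome 18, 52516067 to 52529867 on the minus strand, mm10) reached 88.3, 154, 73.3 and 94.3 CPM in the WT libraries, against 115, 168, 373 and 826 CPM with the deletion. The groups overlapped in a single place, where Pdgfra-Cre:LmnaF/F replicate 1 lay below WT replicate 2. Within the Pdgfra-Cre:LmnaF/F group the highest library exceeded the lowest 7.17-fold, against 2.10-fold in the WT. The log2 fold change was 1.86 (SE 0.48, 95% confidence interval 0.84 to 2.89), a 3.64-fold difference, with an adjusted p of 0.125 from the edgeR test. Without Pdgfra-Cre:LmnaF/F replicate 4, the library with the most cardiac myocyte and hematopoietic transcripts, the value was 1.1 (edgeR adjusted p = 0.205), and without Pdgfra-Cre:LmnaF/F replicate 1 it was 2.16 (edgeR adjusted p = 0.0433), which passed, as did 0.384% of all genes in that fit. With Y-linked expression as a covariate it was 2.13 (edgeR adjusted p = 0.0141), and limma-voom with quality weights gave 1.23 (adjusted p = 0.166). Among the libraries with little Y-linked transcript, the WT library had 73.3 CPM of Lox and the 3 Pdgfra-Cre:LmnaF/F libraries 115 to 373 CPM, and among those with Y-linked transcript, the 3 WT libraries had 88.3 to 154 CPM and the Pdgfra-Cre:LmnaF/F library 826 CPM. Each of these sets has 1 library in an arm, so the values carry no test, and sex and genotype are only partly separated in this design. The annotation places AC161119.1 on the opposite strand across a Lox exon, and whether the counting used strand is not stated.

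Loxl1, whose product crosslinks elastin above all, was the most abundant LOX gene. Loxl1 (chromosome 9, 58287738 to 58313186 on the minus strand, mm10) stood at 1913, 2339, 1393 and 1979 CPM in the WT and at 1568, 1175, 1124 and 1418 CPM in the Pdgfra-Cre:LmnaF/F libraries. The means differed, but WT replicate 3 lay among the Pdgfra-Cre:LmnaF/F values. Its log2 fold change was -0.53 (SE 0.22, edgeR adjusted p = 0.354). Loxl2 acts on collagen IV and on fibrillar collagens. Loxl2 (chromosome 14, 69609068 to 69695834 on the plus strand) had 709, 869, 496 and 595 CPM in the WT and 503, 389, 255 and 304 CPM in the Pdgfra-Cre:LmnaF/F libraries. The groups touched only where WT replicate 3 lay just below Pdgfra-Cre:LmnaF/F replicate 1. Exons of Gm27177 on the opposite strand overlap Loxl2, and those of Htra2 overlap Loxl3. The log2 fold change of Loxl2 was -0.88 (SE 0.25, edgeR adjusted p = 0.160), and DESeq2 gave -0.88 with an adjusted p of 0.0158. Loxl3 (chromosome 6, 83034173 to 83052562 on the plus strand), a family member expressed at low level, lay between 91.7 and 159 CPM in the WT and between 70.2 and 124 CPM in the Pdgfra-Cre:LmnaF/F fibroblasts, with a log2 fold change of -0.31 (SE 0.24, edgeR adjusted p = 0.691), and -0.14 without WT replicate 3. Loxl4, the remaining paralogue, lay between 5.41 and 33.3 CPM and had a log2 fold change of 0.09 (SE 0.49, edgeR adjusted p = 0.967).

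The make-up of the LOX family was read from levels per kilobase, so that its members can be compared within a library. Lox held 2.46%, 3.46%, 2.70% and 2.61% of the per-kilobase level of the 5 LOX genes in the WT libraries, and 3.91%, 7.16%, 16.2% and 25.1% in the Pdgfra-Cre:LmnaF/F libraries. Unlike its CPM, this share did not overlap between the groups, with means of 2.81% ± 0.447 and 13.1% ± 9.52 (SD, n = 4 each). How many shares of other genes would part in this way was not counted, here or for the families below. The summed level of the family, by which the share is divided, had a lower mean with the deletion. The difference in mean share was 10.3 percentage points and lay between 6.27 points, without Pdgfra-Cre:LmnaF/F replicate 4, and 13.3 points with each library left out in turn. Loxl1 remained the majority of the family, with 76.7% ± 2.03 in the WT and 70.7% ± 6.19 in the Pdgfra-Cre:LmnaF/F libraries, and Loxl2 held 16.4% ± 1.33 and 11.9% ± 3.49, both with overlap. The difference in mean share was -6.04 points for Loxl1 and -4.43 points for Loxl2. Without Pdgfra-Cre:LmnaF/F replicate 4 these were -3.26 and -3.18 points. The summed level of the family was 752.5 ± 149 and 570.2 ± 101 CPM per kilobase, and the groups overlapped. The plot of family make-up shows the Lox segment in each library.

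**Figure D3:**
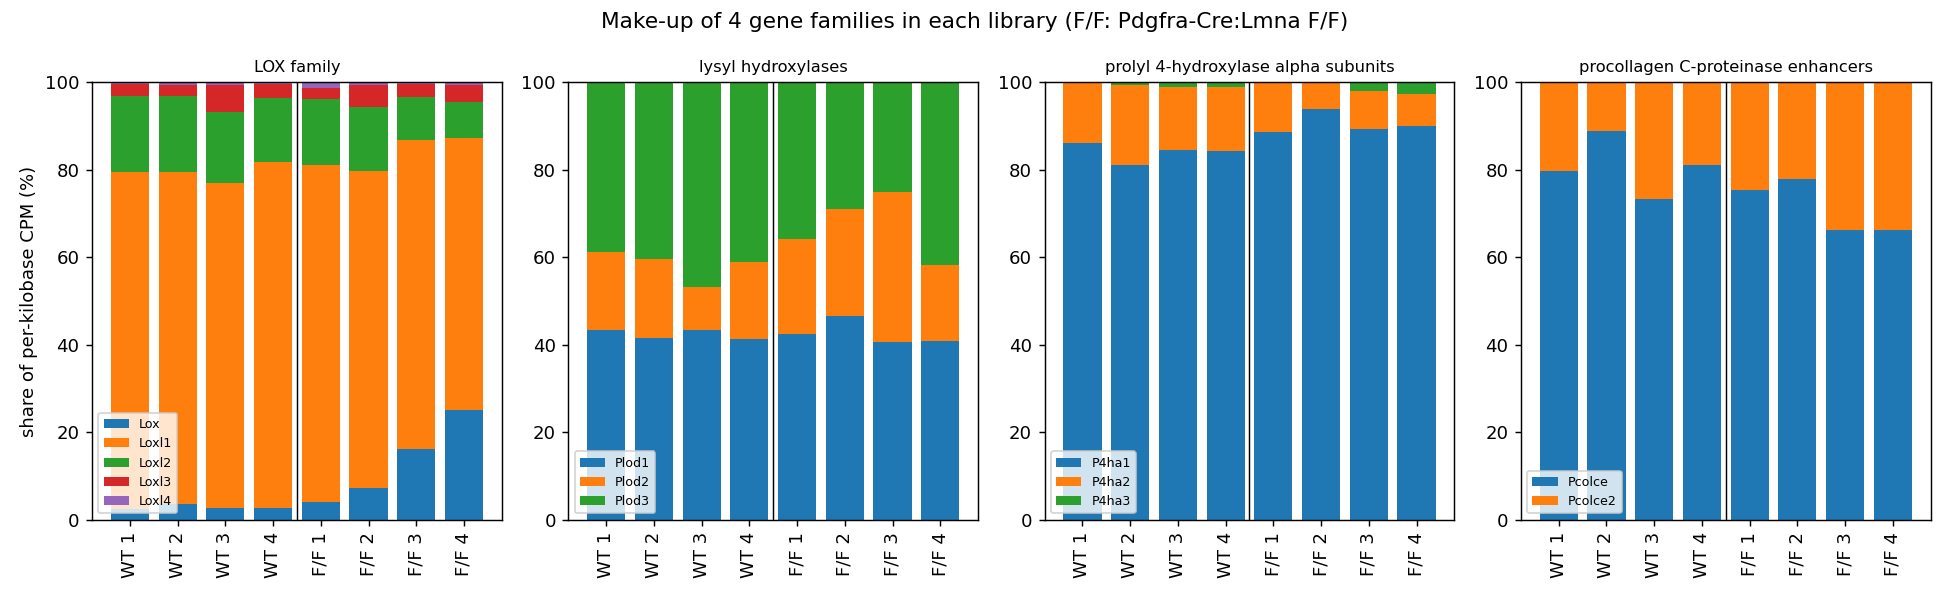
Share of each gene (y axis, %) in the summed per-kilobase CPM of its family, in 4 WT and 4 Pdgfra-Cre:LmnaF/F libraries (labelled F/F), for the LOX family, the lysyl hydroxylases, the prolyl 4-hydroxylase alpha subunits and the procollagen C-proteinase enhancers. The Lox segment at the foot of the first panel is 3.46% or less in the WT bars and 3.91% to 25.1% in the F/F bars.

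Serpinh1 encodes HSP47, a chaperone whose clients are the procollagens. Serpinh1 (chromosome 7, 99345376 to 99353239 on the minus strand, mm10) was at 2390.5, 4302, 2259 and 2732 CPM in the WT and at 1863, 2090.2, 1139.6 and 818 CPM in the Pdgfra-Cre:LmnaF/F libraries. Every Pdgfra-Cre:LmnaF/F library lay below every WT library, WT replicate 2 being the highest and Pdgfra-Cre:LmnaF/F replicate 4 the lowest. The log2 fold change was -0.98 (SE 0.30, 95% confidence interval -1.63 to -0.33, edgeR adjusted p = 0.198). It was -0.74 without WT replicate 2 and -0.78 without Pdgfra-Cre:LmnaF/F replicate 4, and DESeq2 gave -0.99 with an adjusted p of 0.0232.

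Pcolce and Pcolce2 encode the procollagen C-proteinase enhancers, glycoproteins without protease activity of their own that bind the propeptide and raise the activity of BMP1. Pcolce (chromosome 5, 137605103 to 137613784 on the minus strand, mm10) had 1132, 1897, 1364 and 1348 CPM in the WT and 933, 945, 604 and 594 CPM in the Pdgfra-Cre:LmnaF/F libraries. These groups did not overlap either, and Pcolce had the lowest p of the 8 genes with a negative value. The log2 fold change was -0.90 (SE 0.24, 95% confidence interval -1.41 to -0.39, edgeR adjusted p = 0.133), and it lay between -1.02 and -0.74 with each library left out. DESeq2 gave -0.90 with an adjusted p of 0.00537. Exons of Gm36266 on the opposite strand and of Fbxo24 on the same strand overlap Pcolce, and whether reads from them were counted for Pcolce is not stated. Pcolce2 (chromosome 9, 95637601 to 95698096 on the plus strand) had 349.5, 289.8, 600.3 and 382 CPM in the WT and 369, 323, 371 and 367 CPM in the Pdgfra-Cre:LmnaF/F libraries. Its WT values enclosed all 4 Pdgfra-Cre:LmnaF/F values, and its log2 fold change of -0.18 (SE 0.23, edgeR adjusted p = 0.833) was 0.06 without WT replicate 3. Pcolce held 80.7% ± 6.35 of the per-kilobase sum of the pair in the WT and 71.5% ± 6.12 in the Pdgfra-Cre:LmnaF/F fibroblasts, with overlap. The sum of the pair was 463 ± 79.3 and 279 ± 48.5 CPM per kilobase, with every Pdgfra-Cre:LmnaF/F library below every WT library.

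P4ha1 encodes the main catalytic subunit of prolyl 4-hydroxylase, which works as a tetramer with the product of P4hb. P4ha1 (chromosome 10, 59323296 to 59373304 on the plus strand, mm10) was at 213, 305, 396 and 241 CPM in the WT and at 212, 258, 168 and 128 CPM in the Pdgfra-Cre:LmnaF/F libraries. Pdgfra-Cre:LmnaF/F replicates 3 and 4 lay well below all WT values, replicate 1 lay next to WT replicate 1, and replicate 2 lay within the WT range. The log2 fold change was -0.59 (SE 0.25, edgeR adjusted p = 0.373). P4ha2, which encodes the alternative catalytic subunit, fell. P4ha2 had 52.6, 103, 101 and 63.9 CPM in the WT and 41.2, 25.3, 24.8 and 15.9 CPM in the Pdgfra-Cre:LmnaF/F libraries, without overlap. Its log2 fold change was -1.58 (SE 0.31, edgeR adjusted p = 0.0446), and the call was lost with 6 of the 8 libraries left out in turn, with adjusted p between 0.0303 and 0.161 over the 8 fits (WT replicates 2, 3 and 4 and Pdgfra-Cre:LmnaF/F replicates 2, 3 and 4). P4ha3 was at most at 3.83 CPM. The share of P4ha1 in the per-kilobase sum of the 3 subunits was 84.0% ± 2.03 in the WT and 90.5% ± 2.37 in the Pdgfra-Cre:LmnaF/F fibroblasts, again without overlap, and that of P4ha2 was 15.3% ± 1.91 and 8.37% ± 2.26.

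The upstream windows of Serpinh1, P4ha1 and P4ha2 are printed because Serpinh1 had the most negative log2 fold change of the 10 genes and the P4ha pair differed in share. They are the 250 bases before the RefSeq start (GRCm38.p6), for Serpinh1 chr7:99353240-99353489 on the minus strand, for P4ha1 chr10:59323046-59323295 on the plus strand and for P4ha2 chr11:54100674-54100923 on the plus strand. Capitals mark GGGCGG, the GC box, and the hypoxia response cores ACGTG and GCGTG, on either strand.
Serpinh1: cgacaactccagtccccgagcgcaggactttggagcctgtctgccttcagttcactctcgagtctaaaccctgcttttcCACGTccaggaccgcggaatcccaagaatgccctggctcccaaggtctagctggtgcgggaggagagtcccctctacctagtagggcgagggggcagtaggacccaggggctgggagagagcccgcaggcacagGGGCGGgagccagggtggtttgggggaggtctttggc
P4ha1: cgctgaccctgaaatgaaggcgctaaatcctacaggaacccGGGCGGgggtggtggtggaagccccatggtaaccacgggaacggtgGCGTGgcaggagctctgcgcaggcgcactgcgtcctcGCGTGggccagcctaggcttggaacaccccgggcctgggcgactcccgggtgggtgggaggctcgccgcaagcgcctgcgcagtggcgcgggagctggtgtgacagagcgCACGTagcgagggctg
P4ha2: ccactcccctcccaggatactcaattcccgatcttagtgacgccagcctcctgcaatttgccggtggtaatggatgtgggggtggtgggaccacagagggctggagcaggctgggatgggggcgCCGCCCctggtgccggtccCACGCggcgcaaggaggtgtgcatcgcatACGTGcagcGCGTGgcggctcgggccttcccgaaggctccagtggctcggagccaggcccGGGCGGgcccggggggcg

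RefSeq windows were at hand for 5 of the 10 genes, Plod1, Serpinh1, Pcolce, Pcolce2 and P4ha1, and not for Lox, Loxl1, Loxl2, Loxl3 and Plod2. The windows of Pcolce and Pcolce2 overlap annotated exons of the same genes, and that of P4ha2 lies inside the annotated gene but outside its exons, so these 3 are upstream of the RefSeq start only. The GC box GGGCGG was in all 5 windows, against 32.7% of 32851 mouse windows of the same length. ACGTG was in 2 of 5, Serpinh1 and P4ha1, against 16.6%, and GCGTG in 3 of 5, against 28.2%. The TATA box TATAAA was in 1 of 5, Plod1, against 12.4%. CCAAT was in 0 of 5, against 33.8%, and the heat shock element, 3 GAA units in alternating orientation each 2 bases apart, was in 0 of 5, against 0.466%. All motifs were searched on both strands, and GC content lay between 58.8% and 69.6% in the 5 windows, against a median of 52.4%. These are matches of letters, not sites shown to be bound.

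Plod1 encodes the lysyl hydroxylase of the triple helix, and Plod2 the one that hydroxylates the telopeptides, from which the more stable crosslinks of fibrotic tissue arise. Plod1 (chromosome 4, 147909753 to 147936767 on the minus strand, mm10) lay between 218 and 308 CPM in the WT and between 169 and 222 CPM in the Pdgfra-Cre:LmnaF/F fibroblasts, with a log2 fold change of -0.34 (SE 0.19, edgeR adjusted p = 0.525). Plod2 (chromosome 9, 92542223 to 92608428 on the plus strand), which Gm38391 overlaps on the opposite strand, ran through 89.2, 107, 40.6 and 73.1 CPM in the WT and 90.7, 87.4, 114 and 68.4 CPM in the Pdgfra-Cre:LmnaF/F libraries. The groups of both genes overlapped, and Plod2 had, with Lox, the only positive values of the 10 genes, 0.23 on the log2 scale (SE 0.27, edgeR adjusted p = 0.828). It was 0.0069 without WT replicate 3, the library in which Plod2 was lowest. Plod3, whose product also glycosylates hydroxylysine, had a log2 fold change of -0.67 (SE 0.23, edgeR adjusted p = 0.248) with every Pdgfra-Cre:LmnaF/F library below every WT library. Of the per-kilobase sum of the 3 genes, Plod1 held 42.4% ± 1.08 in the WT and 42.6% ± 2.68 in the Pdgfra-Cre:LmnaF/F libraries, Plod2 15.8% ± 3.93 and 24.5% ± 7.16, and Plod3 41.8% ± 3.48 and 32.9% ± 7.35, each with overlap. The difference in the share of Plod2 was 8.67 points and 5.41 points without Pdgfra-Cre:LmnaF/F replicate 3.

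The Pdgfra-Cre:LmnaF/F libraries did not all depart from the WT to the same degree. Relative to the WT mean of log2 CPM, Pdgfra-Cre:LmnaF/F replicates 3 and 4 were highest for Lox (1.92 and 3.07) and lowest for Serpinh1 (-1.31 and -1.79), Pcolce (-1.22 and -1.25), Loxl2 (-1.36 and -1.10) and P4ha1 (-0.74 and -1.13). Plod1 was also lowest in these libraries (-0.57 and -0.32). Loxl1, Loxl3, Plod2 and Pcolce2 did not follow this order, with Pdgfra-Cre:LmnaF/F replicate 4 at -0.40, 0.10, -0.09 and -0.09. Pdgfra-Cre:LmnaF/F replicate 1 departed by 0.23 for Lox, -0.60 for Serpinh1, -0.60 for Pcolce and -0.38 for Loxl2. Pdgfra-Cre:LmnaF/F replicate 3 held 381 CPM of the cardiac myocyte markers, within the range of the WT libraries, and almost no Y-linked transcript (1.96 CPM), whereas replicate 4 held 3237 and 273 CPM of these. The summed dissociation response was highest in replicate 3, at 12700 CPM against 7446 to 8392 CPM in the other 3 Pdgfra-Cre:LmnaF/F libraries, and its part in these departures was not tested. The heat map of departures gives all 80 values.

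**Figure D4:**
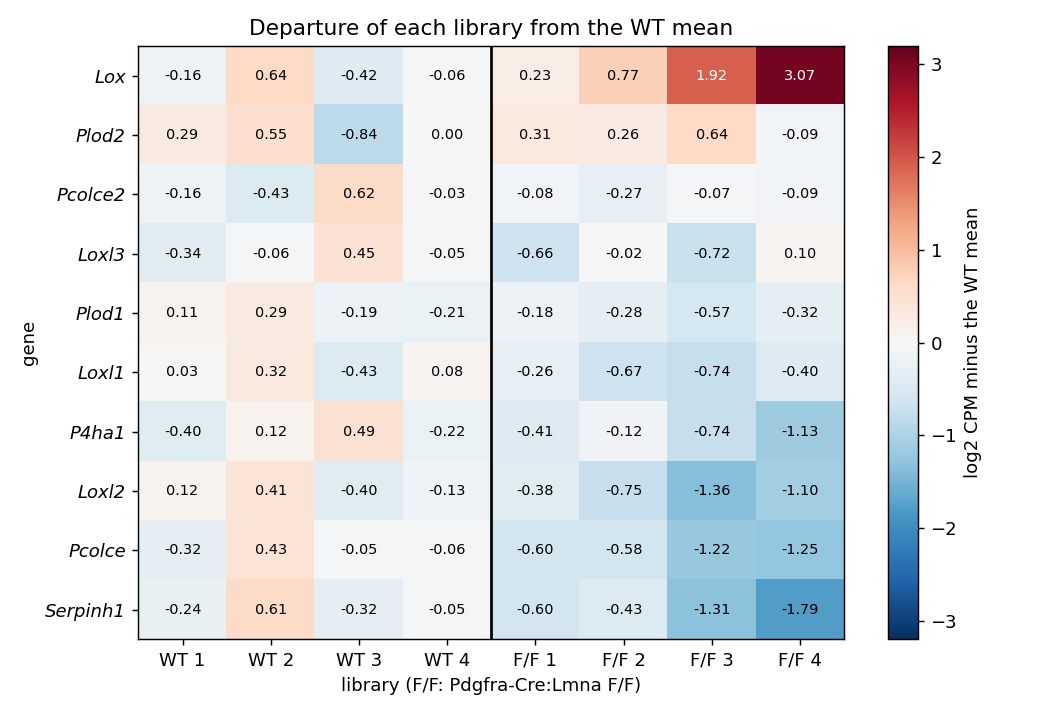
Log2 CPM of each of the 10 genes (rows) in each library (columns, 4 WT and 4 Pdgfra-Cre:LmnaF/F labelled F/F) minus the mean of the WT libraries, with the value written in each cell. F/F replicates 3 and 4 carry the extreme values for Lox (1.92 and 3.07) and for Serpinh1 (-1.31 and -1.79).

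The genes were also set against their main substrates, as counts per 1000 counts of Col1a1, Col1a2 and Col3a1 together. The 3 collagens summed to 28792 ± 7706 CPM in the WT and 21346 ± 4163 CPM in the Pdgfra-Cre:LmnaF/F fibroblasts, with overlap. Lox stood at 3.53 ± 0.492 per 1000 collagen counts in the WT and 16.5 ± 12.0 in the Pdgfra-Cre:LmnaF/F libraries, from 2.99 to 3.99 against 6.59 to 31.7, without overlap. The other 9 genes overlapped between the groups on this scale. The share of all genes that would part on this scale was not counted. The collagen sum, by which the counts are divided, had a mean in the Pdgfra-Cre:LmnaF/F libraries 0.741 times that in the WT, which by itself raises the ratios there. Serpinh1 was at 101 ± 15.1 and 72.2 ± 32.7, Pcolce at 51.0 ± 9.94 and 37.3 ± 12.8, and Loxl2 at 23.3 ± 1.54 and 17.7 ± 7.60 per 1000 collagen counts. Without Pdgfra-Cre:LmnaF/F replicate 4 the difference between the group means went from 12.9 to 7.86 for Lox, from -29.2 to -15.6 for Serpinh1, from -13.7 to -8.80 for Pcolce and from -5.59 to -3.56 for Loxl2, and without Pdgfra-Cre:LmnaF/F replicate 1 that of Loxl2 was -9.26. Loxl1 was at 67.4 ± 11.1 and 63.9 ± 17.8, a difference whose sign changed without WT replicate 4 (1.94) or Pdgfra-Cre:LmnaF/F replicate 2 (1.19), and Plod2 stood at 2.65 ± 0.593 and 4.44 ± 1.59, a difference of 1.78 that was 1.18 without Pdgfra-Cre:LmnaF/F replicate 3. Serpinh1 in Pdgfra-Cre:LmnaF/F replicate 1 was at 106 per 1000 collagen counts, inside the WT range of 80.8 to 116, and in replicate 4 at 31.4.

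The rest of the pathway was examined as a list of 24 other collagen processing genes, of which 23 could be tested and Tll1 could not. Of these, 16 had a negative and 7 a positive log2 fold change, with a median of -0.27, and 1 passed the edgeR test with a negative value, P4ha2, against 0.238% of all genes. At an unadjusted p under 0.05 there were 7 of 23, all negative, against 5.65% of all genes, and in 5 of 23 every Pdgfra-Cre:LmnaF/F library lay below every WT library, against 3.97%. Besides P4ha2, the lowest p values were those of Colgalt2, a collagen galactosyltransferase (log2 fold change -0.90, SE 0.24, edgeR adjusted p = 0.134), and Creb3l1, a transcription factor that drives collagen secretion (-1.25, SE 0.35, edgeR adjusted p = 0.159). DESeq2 called 3 of the 21 genes it tested, P4ha2, Colgalt2 (adjusted p = 0.0232) and Creb3l1 (adjusted p = 0.0379), against 2.58% of all genes, and limma-voom called Creb3l1 alone (adjusted p = 0.0379), against 0.967%. Among the 8 substrate genes, 7 had a negative value, with a median of -0.51, and 1 passed the edgeR test, against 0.238% of all genes in this direction. This was Eln, the gene of elastin and a substrate of LOX and LOXL1, which had 2241, 2341, 1097 and 1564 CPM in the WT and 632, 731, 560.4 and 773 CPM in the Pdgfra-Cre:LmnaF/F libraries, without overlap. Eln fell by 1.43 on the log2 scale (SE 0.25, edgeR adjusted p = 0.0303), with adjusted p between 0.00886 and 0.109 when libraries were left out in turn, the call being lost without WT replicates 1, 2 or 4 or Pdgfra-Cre:LmnaF/F replicates 1, 2 or 3. Col5a3 (-1.02, SE 0.23, edgeR adjusted p = 0.0833) and Col5a1 (-0.57, SE 0.27, edgeR adjusted p = 0.416), chains of the fibril-nucleating collagen V, did not pass, and Col5a1 was at -0.31 without WT replicate 2 and -0.30 with the Y-linked covariate. Col5a3 passed with DESeq2 (adjusted p = 0.00051) and limma-voom (adjusted p = 0.0113), each of which called 2 of the 8 substrates, Eln and Col5a3, against 2.58% and 0.967% of all genes.

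Lox, Plod2, P4ha1 and P4ha2 are known targets of hypoxia-inducible factors, and 16 other hypoxia-inducible genes were read for comparison. Of these, 10 had a positive and 6 a negative log2 fold change, with a median of 0.16, and edgeR called 0 of 16, against 0.407% of all genes, with 3 of 16 at an unadjusted p under 0.05, against 11.9%. DESeq2 called 1 of the 15 it tested, Vegfa (adjusted p = 0.0471), against 2.58% of all genes, as it did with 1 RUVr factor (adjusted p = 0.0086, against 4.01%) and edgeR without the filter (adjusted p = 0.0492, against 1.45%), and limma-voom called 0 of 16, against 0.967%. These 3 did not share a direction. Vegfa, a growth factor for endothelium, had -0.84 (SE 0.24, edgeR adjusted p = 0.166), Kdm3a, a histone demethylase, had 0.68 (SE 0.24, edgeR adjusted p = 0.269), and Bnip3, a mitophagy receptor, had 1.43 (SE 0.58, edgeR adjusted p = 0.350). Bnip3 was at 58.3 CPM in Pdgfra-Cre:LmnaF/F replicate 4, against 6.36 to 29.0 CPM in the other 3, and its value was 0.69 without that library.

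The genes whose log2 CPM over the 8 libraries was most like that of 3 of the 10 genes are given as a description, from points that share the group difference and the depth of each library. For Lox they were Nampt (Pearson r = 0.990), Jmy (0.976), Pim3 (0.976), Acot1 (0.970) and Map3k6 (0.967). Pcolce was most like Acd (0.986), Dlg4 (0.982), Arsi (0.979), Slc38a10 (0.968) and Isg20 (0.967). For Loxl2 the first was Crtap (0.975), which encodes a partner of prolyl 3-hydroxylase and is itself on the list of collagen processing genes, and then Fut11 (0.971), Ganab (0.970), Arhgdia (0.968) and Myh9 (0.966).

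Across the settings tried on all 8 libraries and with single libraries left out, the log2 fold change of Lox lay between 1.1 and 2.16, that of Loxl2 between -1.08 and -0.73, that of Serpinh1 between -1.22 and -0.74, and that of Pcolce between -1.03 and -0.74. These 4 genes were shown because they had the lowest p of the 10 in the edgeR test. Each kept its sign throughout, as did most of the 10, and the plot of settings marks where an adjusted p was under 0.05.

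**Figure D5:**
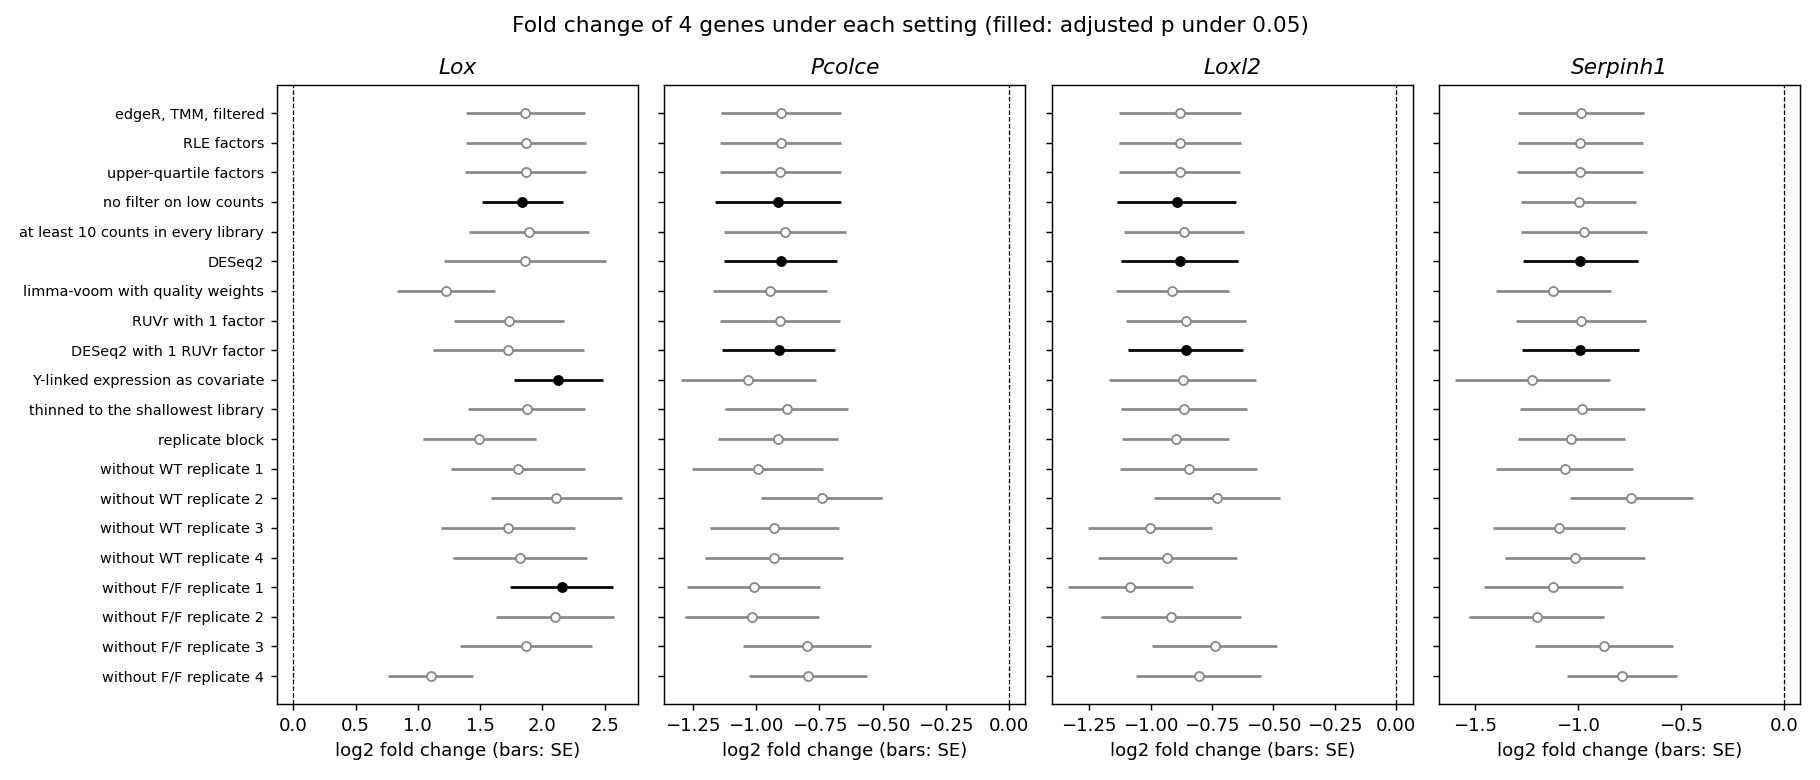
Log2 fold change (x axis, bars for the SE) of Lox, Pcolce, Loxl2 and Serpinh1 under each setting or with each library left out (rows), with filled points for an adjusted p under 0.05. All Lox points are above 0, from 1.1 without F/F replicate 4 to 2.16 without F/F replicate 1, and all points of the other 3 genes are below 0.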

How the data were processed

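RNA from sorted PDGFRA-positive cells was sequenced after ribosomal depletion, as strand-specific paired-end libraries. The authors aligned reads to mm10 with HISAT2, annotated them with GENCODE and counted them with featureCounts, and they deposited whole-number counts per gene symbol. Their methods name RUV normalization and DESeq2 (Q under 0.05), and the RUV variant is not given in the sources used here. The lowest total of any listed gene over the 8 libraries was 4 counts.

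The 10 genes, the lists and the rule for named genes were chosen with earlier results of these data known. Named are the 10 genes, their paralogues, Lmna, genes of the lists of other processing genes, substrates and hypoxia-inducible genes that passed or had the 3 lowest p, and the 5 genes most correlated with each of the 3 members of lowest p. Counts were analysed with edgeR 4.0.16 in R 4.3.3 (TMM factors, filterByExpr, glmQLFit and glmQLFTest, genotype as the only term), with Benjamini-Hochberg adjustment over all 13036 tested genes. DESeq2 1.42.0 and limma 3.58.1 were alternatives, beside RLE and upper-quartile factors, other filters, RUVr, a Y-linked covariate, thinning to 2080555 counts, the replicate block and libraries left out. The fit was also tested on simulated data, with the changed genes drawn at random from all tested genes. Most genes changed 2-fold did not pass and most changed 4-fold did, which is not a rate for the 10 genes described here. A p above the threshold does not show that a gene was unchanged. Genes were compared within a library by CPM per kilobase of merged exons (GENCODE M21). Of the 18957 symbols, 18918 matched M21 and 24 were written as dates. Total counts per library limit precision, and they cover counting error only.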

Additional observations from a re-analysis of the deposited data

Results flagged for a closer look

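Of 66 groups of 4 libraries, 3 held a library that lay far from the rest, a gap to its neighbour above 0.829 of the range of the group, where chance gives about 1 in 20. Pcolce2 in Pdgfra-Cre:LmnaF/F replicate 2 was at 322.8 CPM, below 3 libraries at 367 to 371 CPM, in a group that was tighter than the WT. The share of Plod2 among the lysyl hydroxylases was 9.944% in WT replicate 3, against 17.4% to 18.0% in the other WT libraries. The share of P4ha2 among the prolyl 4-hydroxylase alpha subunits was 18.11% in WT replicate 2, against at most 14.7% in the other WT libraries.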

How the results depend on the processing

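Of the 10 genes, 9 kept their direction under every alternative tried. The exception was Pcolce2, at 0.026 with limma-voom and between -0.31 and 0.065 with each library left out, positive without WT replicate 3. The median log2 fold change of the 10 genes lay between -0.51 and -0.28 in all alternatives. Genes with an adjusted p under 0.05 numbered 53 over all genes and 0 of 10 here. The counts were 274 and 3 without the filter on low counts, 303 and 3 with DESeq2, 462 and 4 with DESeq2 and 1 RUVr factor, and 116 and 1 with the Y-linked covariate. Over all genes there were 126 with limma-voom, 84 with RUVr, and 18 without WT replicates 2 and 3, an alternative chosen after seeing the data. Leaving out each library gave 13 to 76 genes, and 0 to 1 of the 10. The cause of these changes was not tested. Without WT replicates 2 and 3, the libraries with dividing cell markers, the log2 fold changes were 2.005 for Lox, -0.81 for Serpinh1, -0.70 for Pcolce and -0.86 for Loxl2. P4ha2, which was highest in these 2 libraries, was at -1.13 and lost its call (adjusted p = 0.448). P4ha2 lost its call with limma-voom (adjusted p = 0.0596), and Eln with the Y-linked covariate (adjusted p = 0.0503). Loxl4 lay between -0.49 and 0.41 with libraries left out, negative without WT replicate 1 (-0.025), WT replicate 4 (-0.0074) or Pdgfra-Cre:LmnaF/F replicate 1.

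Same-numbered libraries did not deviate together, with correlations between -0.03 and 0.04, so the numbers were not taken as pairs. With the replicate block 36 genes passed, of which 26 were among the 53, and 0 of 10 here. Lox was at 1.49, Loxl4 at -0.17, and P4ha2 lost its call (adjusted p = 0.0742).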
